A study of Rattus norvegicus with 12 samples.

Results

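A set of 49 rat genes of glutathione metabolism, the NRF2 pathway and antioxidant defence was followed across all arrays of the study. Members were listed by name and found by matching each name, or an older synonym of it, to the gene names of the array. Of the 49, 48 had a probe and 45 were among the 10937 genes tested. Prdx4 was not analysed here. Gsta3, Gstk1 and Srxn1 were detected on 0 of 12 arrays, where a probe counted as detected at a detection p-value under 0.05, and were not tested.

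The arrays measured total RNA from organotypic cultures of REK, a single rat epidermal keratinocyte line that forms a stratified epidermis at the air-liquid interface without feeder cells. There were 3 cultures, A, B and C, in each of 4 groups. The betaine + UVB cultures received 10 mM betaine for 11 days and 30 mJ/cm2 UVB 24 h before collection. UVB cultures received the same irradiation without betaine, betaine cultures received the same betaine with mock irradiation, and control cultures received mock irradiation alone. All groups were collected when 2 weeks old. Nothing in the labels states if cultures A, B and C were grown in independent experiments, and the p-values therefore speak for the variation among these 12 cultures alone, which may be technical. In a whole epidermal layer, fewer cells of a type and less RNA per cell cannot be told apart.

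Glutathione is a small thiol made from glutamate, cysteine and glycine by glutamate-cysteine ligase (Gclc and Gclm) and glutathione synthetase (Gss). Peroxidases and transferases use it to reduce peroxides and to conjugate electrophiles. NRF2, encoded by Nfe2l2, is held for degradation by KEAP1 in unstressed cells and, when released, binds antioxidant response elements of many genes of this set. Metallothioneins bind zinc and other metals and are induced through metal response elements by the transcription factor MTF1. In the epidermis these systems meet the oxidants that ultraviolet light generates.

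Promoters in RefSeq (GRCr8), taken from 250 bases before to 50 bases after each start site, were matched to 38 of the 49 members, with 43 promoters in all. The core of the antioxidant response element, TGACNNNGC on either strand, was found in 14 of these 38 members (36.8%), against 13.1% of all 27457 genes with a promoter in the table. The core of the metal response element, TGCACNC or TGCGCNC on either strand, was found in 11 members (28.9%), against 26.3% of all genes. Matches that overlap on opposite strands were counted separately. These are matches of letters and not measured binding sites. Mt1a, the member with the largest averaged rise after UVB, had the most metal cores of any member, 6 in 1 promoter, and 1.68% of all promoters held 3 or more. Gsta4, a member lowered by betaine, held 3. The 250 bases upstream of the Mt1a start site, chr19:10832976-10833225 on the minus strand, are shown with the metal cores of Mt1a in capitals. Of these cores, 5 are on the gene's strand and 1 is on the other.
Mt1a: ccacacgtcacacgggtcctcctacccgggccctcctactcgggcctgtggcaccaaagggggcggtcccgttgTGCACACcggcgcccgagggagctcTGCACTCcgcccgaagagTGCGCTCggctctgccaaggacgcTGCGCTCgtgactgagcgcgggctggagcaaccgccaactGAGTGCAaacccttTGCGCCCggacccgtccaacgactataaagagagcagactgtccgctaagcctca

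The next windows show the antioxidant core, in capitals, in the same promoter and in 5 members whose measured values are set beside it later: Gclm of glutathione synthesis, the transferase Gstp1, the peroxidases Gpx2 and Prdx1, and Me1 of NADPH supply. Each is read on the strand that carries the core, at chr19:10833058-10833086 (minus) for Mt1a, chr2:213031953-213031981 (minus) for Gclm, chr1:210769748-210769776 (minus) for Gstp1, chr6:101230028-101230056 (plus) for Gpx2, chr5:135383761-135383789 (minus) for Prdx1 and chr8:96540393-96540421 (minus) for Me1. The other 8 members with the core were Nfe2l2, Gsta2, Gsta3, Prdx4, Prdx5, Sod2, Txnrd1 and Hmox2, of which Gsta2 and Sod2 changed after UVB. No match to this core was found in the windows of Gclc, Gss, Gsta4 or Nqo1. Sequence outside the windows was not searched, and Hmox1, Aldh3a1, Gstt1 and Gstt2 had no promoter to search.
Mt1a: gctgcgctcgTGACTGAGCgcgggctgga
Gclm: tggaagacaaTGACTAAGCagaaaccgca
Gstp1: tccactgtgtTGACTCAGCatccggggcg
Gpx2: attcccagaaTGACTTAGCgaaaccaggt
Prdx1: cggcggggtaTGACTCAGCgctttccctg
Me1: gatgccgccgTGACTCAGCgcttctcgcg

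After UVB, averaged over cultures with and without betaine, 11 of the 45 tested members changed, with 6 higher and 5 lower. Those higher were Mt1a, Gclc, Gss, Sod2, Prdx3 and Taldo1, and those lower were Gsta2, Txnrd2, Gstt1, Gstt2 and Prdx6. A change was called in limma at a Benjamini-Hochberg adjusted p under 0.05 over all tested genes. The share of members called was 24.4%, and 11.2% of all genes were called in the same fit, 6.08% higher and 5.16% lower. Since the members were listed with results of these data known, nothing particular to the set is read from this. The median averaged UVB effect was −0.02 log2 over the members and −0.01 over all genes. With arrays scaled to equal medians in place of quantile normalization, 3 members were higher and 6 lower, the median over all genes was −0.06, and 37.3% of all called genes were higher, against 54.1% as reported. All 6 irradiated arrays lay on 1 side of all 6 unirradiated arrays for 8 members (5.84% of all genes).

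Without betaine, UVB changed 3 members against control (4.96% of all genes called, 2.97% higher and 1.98% lower): Mt1a and Gclc were higher and Gstt1 was lower. With arrays scaled to equal medians this was 2 higher and 3 lower, the median over all genes was −0.11 against −0.02 as reported, and 32.1% of all called genes were higher, against 60%. In betaine-treated cultures, 3 members changed in betaine + UVB against betaine (6.14% of all genes called, 3.87% higher and 2.28% lower), with Mt1a and Gclc higher and Gsta2 lower. The arrays of the compared groups did not overlap for 17 of the 45 members in UVB against control (22.9% of all genes) and for 17 in betaine + UVB against betaine (27.3% of all genes).

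Betaine changed 2 members as reported. Averaged over cultures with and without UVB, Aldh3a1 was higher and Gsta4 was lower, 2 of 45 (3.25% of all genes called, 1.66% higher and 1.58% lower). Against control, betaine lowered Gsta4 alone, 1 of 45 (0.896% of all genes called, 0.366% higher and 0.53% lower). Of all genes called there, 40.8% were higher, against 16.2% with arrays scaled to equal medians. In irradiated cultures, betaine + UVB against UVB, Aldh3a1 was higher and Gsta4 lower, 2 of 45 (0.887% of all genes called, 0.494% higher and 0.393% lower). Arrays did not overlap for 6 members in betaine against control (14.5% of all genes) and for 15 in betaine + UVB against UVB (28.6% of all genes). All 6 arrays with betaine lay on 1 side of all 6 without it for 3 members (1.67% of all genes), Aldh3a1, Gsta4 and Mgst2.

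**Figure D1:**
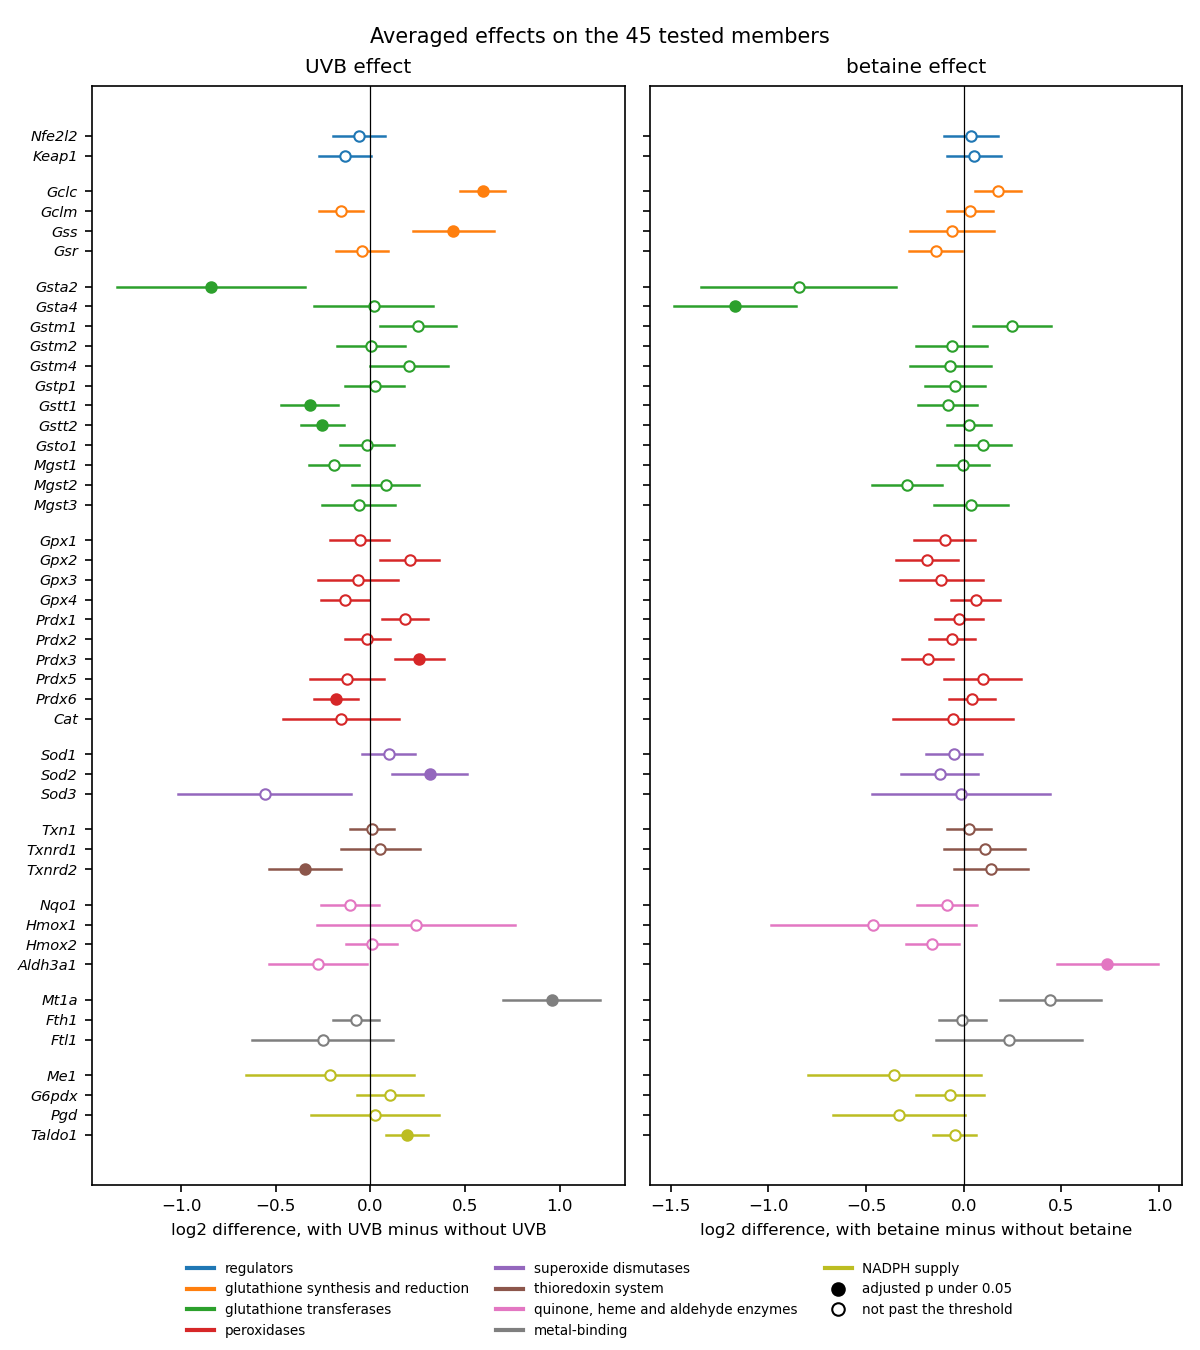
Difference in log2 intensity for the 45 tested members, grouped by role, with the UVB effect averaged over betaine states on the left and the betaine effect averaged over UVB states on the right. Points are estimates from 3 cultures a group, bars are 95% confidence intervals, and filled points passed an adjusted p of 0.05. Mt1a (0.96) and Gclc (0.59) stand highest on the left, Gsta2 (−0.84) lowest, and Gsta4 (−1.17) and Aldh3a1 (0.73) are the 2 filled points on the right.

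Neither regulator passed in any comparison as reported. Nfe2l2, the transcription factor itself, measured 12.41, 12.24 and 12.37 log2 intensity in the betaine + UVB cultures A, B and C, 12.35, 12.24 and 12.35 in the UVB cultures, 12.39, 12.34 and 12.50 in the betaine cultures and 12.29, 12.51 and 12.29 in the control cultures. All 4 groups overlapped. Its averaged UVB effect was −0.06 log2 with a 95% interval of −0.20 to 0.08, and its averaged betaine effect was 0.04 with an interval of −0.10 to 0.18. Keap1, the adaptor that marks NRF2 for degradation, measured 9.70, 9.73 and 9.69 in the UVB cultures, against 9.89, 10.10 and 9.89 in controls. The 3 UVB values lay below all control values, but the difference of −0.25 ± 0.09 (SE, 3 cultures a group, as for every ± beside a difference here) had an adjusted p of 0.155. With arrays scaled to equal medians Keap1 was called lower in UVB against control. With betaine, Keap1 measured 9.84, 9.77 and 10.02 in betaine + UVB cultures, against 9.92, 9.92 and 9.84 in betaine cultures, and these overlapped. Transcript level says nothing of NRF2 protein, which was not measured.

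Among the 4 genes of glutathione synthesis and reduction, 2 rose after UVB and 0 fell in the averaged effect. Over all genes 6.08% were called higher and 5.16% lower. Gclc encodes the catalytic subunit of glutamate-cysteine ligase, the rate-limiting enzyme of glutathione synthesis. It measured 12.13, 12.23 and 12.16 in betaine + UVB cultures, against 11.47, 11.45 and 11.55 in betaine cultures. In cultures without betaine it measured 11.88, 11.92 and 11.92 after UVB, against 11.46, 11.29 and 11.46 in controls. Every irradiated culture was above every unirradiated one, and the betaine + UVB cultures were above the UVB cultures. The averaged UVB effect was 0.59 ± 0.05 log2, a 1.51-fold rise (adjusted p = 2.01e-05 in limma). The rise was 0.68 ± 0.08 with betaine (adjusted p = 0.000196) and 0.50 ± 0.08 without it (adjusted p = 0.00251), and the difference between these rises was 0.18 ± 0.11 (adjusted p = 0.712). Betaine + UVB exceeded UVB by 0.26 ± 0.08, which did not pass (adjusted p = 0.141). The averaged betaine effect of 0.17 ± 0.05 did not pass either (adjusted p = 0.115). Both were called with the authors' processed values and in no other alternative run. The Gclc calls for UVB held in every fit that left out 1 array.

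Gss encodes glutathione synthetase, which adds glycine in the last step of synthesis. Its values were 9.27, 9.42 and 9.24 in betaine + UVB cultures, against 8.98, 8.86 and 8.70 in betaine cultures. Without betaine they were 9.22, 9.40 and 9.40 after UVB, against 9.20, 8.60 and 8.99 in controls. Irradiated cultures lay above the others with a narrow gap, since control A reached 9.20 and UVB A 9.22. The averaged UVB rise was 0.44 ± 0.10 log2 (adjusted p = 0.0127), while the rises of 0.46 with betaine (adjusted p = 0.0761) and 0.41 without it (adjusted p = 0.135) did not pass on their own. Gclm, the modifier subunit that partners Gclc and carries an antioxidant core in its promoter window, had an averaged UVB effect of −0.16 ± 0.05 (adjusted p = 0.0949), opposite in sign to Gclc. Its irradiated cultures ran from 9.74 to 9.90 and its unirradiated cultures from 9.93 to 10.08 without overlap. Gsr, the reductase that regenerates glutathione from its oxidized form, had an averaged UVB effect of −0.04 ± 0.06 and an averaged betaine effect of −0.14 ± 0.06, and neither passed (adjusted p = 0.745 and 0.236).

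Of the metal-binding members, the metallothionein Mt1a changed and the ferritins Fth1 and Ftl1 did not pass. Mt1a, named Mt1 in current annotation, encodes a small cysteine-rich protein that binds zinc and other metals. It measured 12.0002, 12.09 and 11.99 in betaine + UVB cultures, against 10.98, 10.99 and 11.05 in betaine cultures. Without betaine it measured 11.20, 11.39 and 11.96 after UVB, against 10.72, 10.37 and 10.78 in controls. The groups stood in 4 steps that did not overlap: betaine + UVB highest, then UVB, betaine and control, with UVB C close to the lowest betaine + UVB culture. The averaged UVB rise was 0.96 ± 0.12 log2, or 1.94-fold (adjusted p = 0.000183). The rise was 1.02 ± 0.17 with betaine (adjusted p = 0.0027) and 0.89 ± 0.17 without it (adjusted p = 0.00904). Betaine + UVB exceeded UVB by 0.51 ± 0.17 (adjusted p = 0.177) and betaine exceeded control by 0.38 ± 0.17 (adjusted p = 0.419), and neither passed; the averaged betaine effect of 0.44 ± 0.12 also missed (adjusted p = 0.0664). The call without betaine was lost when only the UVB and control groups were fitted. Without UVB C, the highest array of its group, Mt1a did pass for betaine + UVB against UVB and for the averaged betaine effect.

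Fth1 and Ftl1 encode the heavy and light chains of ferritin, the iron-storage shell. Fth1 had an averaged UVB effect of −0.08 ± 0.05 (adjusted p = 0.452) and an averaged betaine effect of −0.01 ± 0.05 (adjusted p = 0.958). Ftl1 had an averaged UVB effect of −0.25 ± 0.17 (adjusted p = 0.425), and it varied widely within groups, with 12.82, 11.77 and 12.28 in control cultures A, B and C. Ftl1 has close copies in the rat genome, and whether its probe reads them was not tested.

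**Figure D2:**
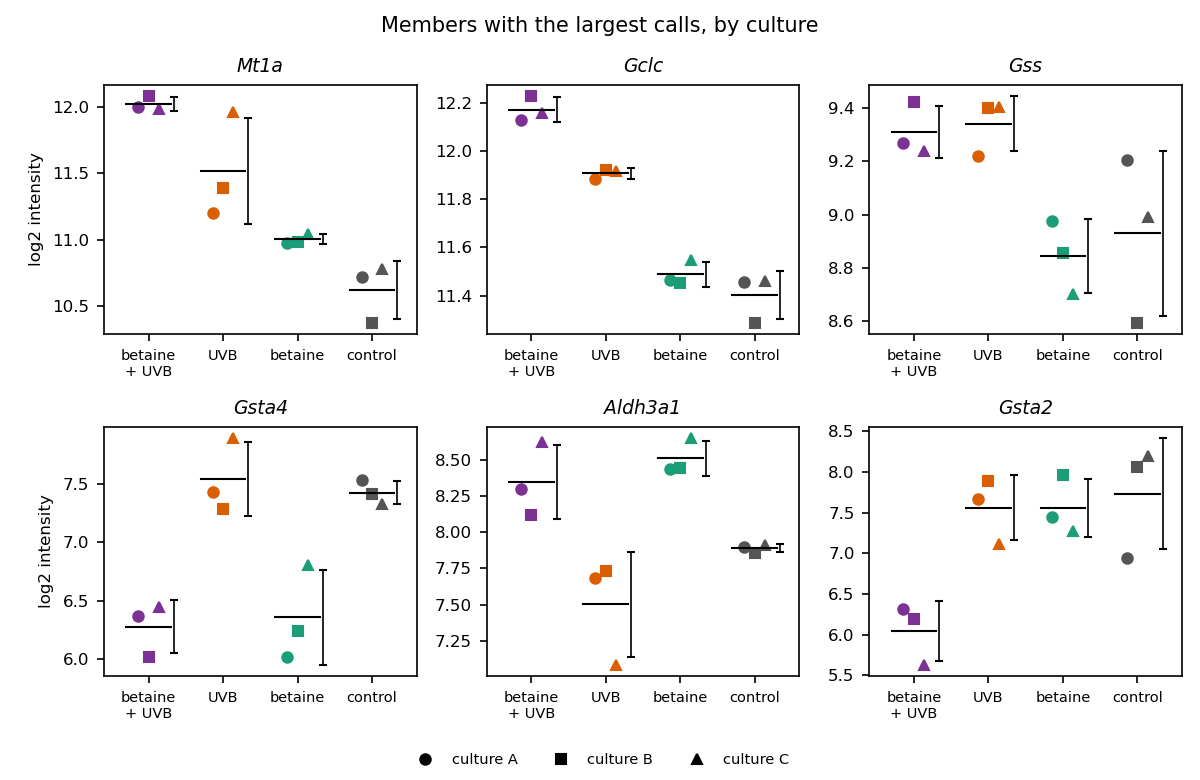
Log2 intensity of Mt1a, Gclc, Gss, Gsta4, Aldh3a1 and Gsta2 in each culture, by group, with symbols for cultures A, B and C, a line at the group mean and a bar of 1 SD each way (n = 3). Mt1a and Gclc separate the 2 irradiated groups from the 2 others, Gsta4 and Aldh3a1 separate the 2 betaine groups from the 2 others, and Gsta2 is low in betaine + UVB, where it measured 6.32, 6.20 and 5.63.

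Glutathione transferases, which attach glutathione to electrophiles such as lipid peroxidation products, were the largest role group, with 14 members and 12 tested. In the averaged UVB effect 0 rose and 3 fell (Gsta2, Gstt1 and Gstt2), against 11.2% of all genes called. In the averaged betaine effect 0 rose and 1 fell (Gsta4), against 3.25% of all genes called. The median over the 12 was −0.01 log2 for UVB and −0.05 for betaine. Alpha and mu class transferases are close paralogs, and cross-hybridization between their probes was not tested. In the order of genes in GRCr8, Gstm2, Gstm1 and Gstm4 are direct neighbours on chromosome 2, and 1 protein-coding gene lies between Gsta4 and Gsta2 on chromosome 8, with 4 between Gclc and Gsta4.

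Gsta4 encodes an alpha class transferase known for conjugating 4-hydroxynonenal, a product of lipid peroxidation. It measured 6.37, 6.02 and 6.44 in betaine + UVB cultures, against 7.44, 7.29 and 7.90 in UVB cultures. In unirradiated cultures it measured 6.02, 6.24 and 6.81 with betaine, against 7.54, 7.42 and 7.33 in controls. All 6 cultures with betaine lay below all 6 without it. They ran from 6.02 to 6.81, and the lowest detected value of an array had a median of 5.59. The averaged betaine effect was −1.17 ± 0.14 log2, 2.25-fold lower with betaine (adjusted p = 0.00117), and this call held without any single array. The effect was −1.27 ± 0.20 in irradiated cultures (adjusted p = 0.0141) and −1.07 ± 0.20 in unirradiated ones (adjusted p = 0.0348). UVB had no called effect on Gsta4, with an averaged difference of 0.02 ± 0.14 and a 95% interval of −0.30 to 0.33. The unirradiated call was lost without control A, B or C, betaine A or B, UVB A, or betaine + UVB A or C, with an adjusted p of up to 0.127 without control A, and the irradiated call was lost without UVB C or betaine + UVB B (up to 0.0717). The averaged effect was −0.75 without background correction and −0.37 with the authors' processed values, and it was called in both, while the unirradiated call was lost with the authors' values (−0.34, adjusted p = 0.0527).

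Gsta2, another alpha class transferase, was lowest where both agents were given. It measured 6.32, 6.20 and 5.63 in betaine + UVB cultures, against 7.45, 7.96 and 7.27 in betaine cultures. Without betaine it measured 7.67, 7.89 and 7.12 after UVB, against 6.95, 8.06 and 8.19 in controls. The 3 betaine + UVB values lay below all 9 others, and the UVB, betaine and control cultures overlapped. The lowest, 5.63, lay near the lowest detected value of an array (median 5.59 over the 12 arrays). The probe was detected on all 12. Betaine + UVB was lower than betaine by 2.85-fold, a difference of −1.51 ± 0.32 log2 (adjusted p = 0.0156). Betaine + UVB was lower than UVB by the same −1.51 ± 0.32, which narrowly missed (adjusted p = 0.0566). That difference was called among genes detected on all 12 arrays, with only those 2 groups fitted, and without control A or betaine C. It was called in no other alternative run. The averaged UVB effect was −0.84 ± 0.23 (adjusted p = 0.0336), and it combines −1.51 with betaine and −0.17 ± 0.32 without it. Those last values differed by −1.34 ± 0.46, with an unadjusted p of 0.013 and an adjusted p of 0.574. The call against betaine was lost without betaine B or betaine + UVB C (adjusted p up to 0.0777), and the averaged call without control B or C, betaine A or B, UVB A or C, or betaine + UVB B or C (up to 0.086, without control B). Without background correction the difference from betaine was −0.95 and the averaged effect −0.55, both called; with the authors' processed values they were −0.46 (adjusted p = 0.0657) and −0.28 (adjusted p = 0.0831).

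The theta class members Gstt1 and Gstt2, which lie near each other on chromosome 20 with 2 protein-coding genes between them, both fell after UVB. Gstt1 measured 7.32, 7.44 and 7.26 in betaine + UVB cultures, against 7.65, 7.53 and 7.52 in betaine cultures. Without betaine it measured 7.24, 7.24 and 7.50 after UVB, against 7.63, 7.77 and 7.82 in controls. All irradiated values were below all unirradiated ones, and the averaged effect was −0.32 ± 0.07 log2 (adjusted p = 0.00975). Its effect against control, −0.41 ± 0.10 (adjusted p = 0.0324), lost the call without control B or C, UVB A or B, or betaine + UVB A, with an adjusted p of up to 0.121 without UVB B. For Gstt2 the values were 10.28, 10.26 and 10.26 in betaine + UVB cultures, against 10.44, 10.49 and 10.58 in betaine cultures, and 10.26, 10.20 and 10.21 after UVB alone, against 10.57, 10.45 and 10.45 in controls. Again no irradiated culture reached an unirradiated one, and the averaged effect was −0.25 ± 0.05 (adjusted p = 0.00763). Both averaged theta class calls held without any single array. For Gstt1 the authors' processed values gave −0.13 for the averaged effect and −0.18 against control, both called.

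The other 8 tested transferases did not pass. Mgst1, a microsomal transferase, had an averaged UVB effect of −0.19 ± 0.06 (adjusted p = 0.066), and it was called with median scaling, without background correction and with the authors' processed values. Gstp1, the pi class enzyme with an antioxidant core in its window, had an averaged UVB effect of 0.02 ± 0.07 and an averaged betaine effect of −0.04 ± 0.07. A probe that the array names Gstp2 but that current annotation assigns to Gstp1 gave an averaged UVB effect of 0.25 ± 0.10 (adjusted p = 0.133). Gstm1, a mu class enzyme, had averaged effects of 0.25 ± 0.09 for UVB (adjusted p = 0.112) and 0.25 ± 0.09 for betaine (adjusted p = 0.176). Mgst2 is a membrane transferase that also makes leukotriene C4. Its averaged betaine effect of −0.29 ± 0.08, with betaine and no-betaine arrays apart, missed the threshold (adjusted p = 0.0827). It was called without background correction and with the authors' processed values.

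Peroxidases, which reduce hydrogen peroxide and lipid peroxides, differed between groups by small amounts. Of 10 tested members, 1 rose and 1 fell in the averaged UVB effect (11.2% of all genes called). In the averaged betaine effect 0 changed (3.25% of all genes called). There limma gave an unadjusted p under 0.05 for 2 (2080 of all genes, 19%). The rise was in Prdx3, the mitochondrial peroxiredoxin. It measured 12.07, 11.96 and 11.97 in betaine + UVB cultures, against 11.67, 11.62 and 11.81 in betaine cultures, and 12.13, 12.04 and 12.25 after UVB alone, against 11.90, 11.91 and 11.96 in controls. Within each betaine state the irradiated cultures were higher, and the averaged rise was 0.26 ± 0.06 log2 (adjusted p = 0.0147).

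The fall was in Prdx6, a peroxiredoxin that uses glutathione and also has phospholipase activity. Its values were 12.72, 12.77 and 12.74 in betaine + UVB cultures, against 12.94, 12.84 and 12.74 in betaine cultures, and 12.63, 12.58 and 12.65 after UVB alone, against 12.85, 12.91 and 12.89 in controls. The arrays overlapped in the betaine-treated pair and not in the other. Its averaged effect of −0.18 ± 0.05 had an adjusted p of 0.0495, and the call was lost whenever 1 array other than betaine C was left out, with an adjusted p of up to 0.119 without betaine A.

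Gpx2, an epithelial glutathione peroxidase and a known NRF2 target, had the largest averaged betaine effect among peroxidases, and it did not pass. It measured 12.10, 12.18 and 12.04 in betaine + UVB cultures, against 12.27, 12.37 and 12.50 in UVB cultures. In unirradiated cultures it measured 12.02, 12.13 and 11.81 with betaine, against 12.01, 12.07 and 12.18 in controls. The irradiated pair did not overlap and the unirradiated pair did, and the averaged betaine effect was −0.19 ± 0.07 (adjusted p = 0.192). The averaged UVB effect on Gpx2 was 0.21 ± 0.07 (adjusted p = 0.0929), and it was called with the authors' processed values. Prdx1, a cytosolic peroxiredoxin, has an antioxidant core in its window. Its averaged UVB effect of 0.18 ± 0.06 lay just outside the threshold (adjusted p = 0.0552). It was called without background correction, with the authors' processed values, without a detection filter and among genes detected on all 12 arrays. With median scaling, every probe or the replicate block it was not called. The selenoenzymes Gpx1 and Gpx4 and the catalase gene Cat had averaged UVB effects of −0.06, −0.13 and −0.15, and none passed. Gpx3, a secreted glutathione peroxidase, was detected on 6 of 12 arrays, so its values lie near background.

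Superoxide dismutases convert superoxide to hydrogen peroxide, and of 3 members 1 rose after UVB in the averaged effect (11.2% of all genes called). Sod2, the mitochondrial manganese enzyme, measured 10.32, 10.17 and 10.16 in betaine + UVB cultures, against 10.08, 9.99 and 9.85 in betaine cultures. Without betaine it measured 10.19, 10.34 and 10.70 after UVB, against 9.86, 10.11 and 10.10 in controls. All irradiated values lay above all unirradiated ones, by a narrow margin, and the averaged rise was 0.31 ± 0.09 log2 (adjusted p = 0.046). That call was lost whenever 1 array other than UVB A was left out, with an adjusted p of up to 0.112 without betaine + UVB A. Sod3, the extracellular enzyme, had the largest averaged UVB effect of this group, −0.56 ± 0.21, and did not pass (adjusted p = 0.119). Its values were 8.64, 8.86 and 8.41 in betaine + UVB cultures, against 9.59, 9.96 and 8.86 in betaine cultures, and 9.16, 9.11 and 8.50 after UVB alone, against 8.69, 9.66 and 9.27 in controls. Spread within groups was as wide as the differences between them. Sod1, the cytosolic copper-zinc enzyme, had an averaged UVB effect of 0.10 (adjusted p = 0.411).

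In the thioredoxin system, which reduces protein disulfides with electrons from NADPH, the mitochondrial reductase Txnrd2 fell after UVB. It measured 7.05, 7.05 and 7.20 in betaine + UVB cultures, against 7.61, 7.32 and 7.57 in betaine cultures. Without betaine it measured 6.97, 6.79 and 7.28 after UVB, against 7.27, 7.30 and 7.36 in controls, where UVB C reached the control range. The averaged effect was −0.35 ± 0.09 log2 (adjusted p = 0.0231), and it was lost without control C, betaine A, UVB A or B, or betaine + UVB A or B, with an adjusted p of up to 0.0616 without betaine A. With the authors' processed values it was −0.13 and called. Txnrd1, the cytosolic reductase and a known NRF2 target, had an averaged UVB effect of 0.05 ± 0.10 (adjusted p = 0.803). The probe used for Txn1, thioredoxin itself, ranked 1st on 9 of the 12 arrays, and quantile normalization gives the same value to every probe of 1 rank, so it can show little of any change. The other 2 Txn1 probes had averaged UVB effects of 0.11 ± 0.06 (adjusted p = 0.275) and 0.14 ± 0.06 (adjusted p = 0.176).

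Among the quinone, heme and aldehyde enzymes, Aldh3a1 was the member that changed. It encodes an aldehyde dehydrogenase of stratified epithelia, abundant in the cornea, that oxidizes aldehydes from lipid peroxidation. It measured 8.30, 8.12 and 8.63 in betaine + UVB cultures, against 7.68, 7.74 and 7.09 in UVB cultures. In unirradiated cultures it measured 8.44, 8.44 and 8.65 with betaine, against 7.90, 7.86 and 7.91 in controls. All 6 cultures with betaine were above all 6 without it. The averaged betaine rise was 0.73 ± 0.12 log2, or 1.66-fold (adjusted p = 0.00713), and it held without any single array. The rise was 0.85 ± 0.17 in irradiated cultures (adjusted p = 0.0379) and 0.62 ± 0.17 in unirradiated cultures, where it did not pass (adjusted p = 0.147). The irradiated call was lost whenever 1 array other than control A, betaine B or betaine C was left out, with an adjusted p of up to 0.179 without betaine + UVB C. With the authors' processed values the averaged rise was 0.37 and the irradiated one 0.40, both called. Aldh3a1 and Gsta4, both tied to lipid aldehydes as background knowledge, thus stood in opposite directions across the same 12 arrays.

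Nqo1, the quinone reductase often used as a readout of NRF2 activity, had an averaged UVB effect of −0.11 ± 0.07 with a 95% interval of −0.26 to 0.04, and an averaged betaine effect of −0.09 ± 0.07 with an interval of −0.24 to 0.07. NRF2 activity was not tested. Hmox2, the constitutive heme oxygenase, had an averaged betaine effect of −0.16 (adjusted p = 0.191). Hmox1, the inducible heme oxygenase, is given in full although it passed in no comparison as reported, a choice made after its values were seen. It measured 11.45, 11.44 and 10.79 in betaine + UVB cultures, against 12.38, 12.52 and 11.92 in UVB cultures. In unirradiated cultures it measured 11.43, 11.88 and 11.39 with betaine, against 10.50, 11.996 and 11.84 in controls. Betaine + UVB lay below UVB with no overlap, by −1.04 ± 0.34 log2 (adjusted p = 0.173), while control A sat far below the other controls. Without control A, both Hmox1 and Gsta2 passed for betaine + UVB against UVB, where 4 members were then called. In that fit both also passed for the averaged betaine effect. With only the UVB and betaine + UVB groups fitted, both passed as well.

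In the NADPH supply group, Taldo1, the transaldolase of the pentose phosphate pathway, rose slightly after UVB. It measured 14.11, 14.05 and 13.98 in betaine + UVB cultures, against 13.87, 13.87 and 13.92 in betaine cultures, and 14.11, 14.16 and 14.11 after UVB alone, against 13.88, 13.86 and 13.96 in controls. All irradiated cultures were above all others, and the averaged rise was 0.19 ± 0.05 log2 (adjusted p = 0.0285). It lost the call without control A or B, betaine A or B, UVB A or B, or betaine + UVB A or B, with an adjusted p of up to 0.0831 without betaine + UVB A, and with median scaling (0.10, adjusted p = 0.353). Me1, the cytosolic malic enzyme with an antioxidant core in its window, measured 10.84, 10.70 and 10.05 in betaine + UVB cultures, against 11.45, 11.53 and 10.90 in UVB cultures. In unirradiated cultures it measured 11.10, 11.45 and 10.92 with betaine, against 10.44, 11.40 and 11.46 in controls. Betaine + UVB lay below UVB with no overlap, by −0.77 ± 0.29, and did not pass (adjusted p = 0.22). G6pdx and Pgd, the dehydrogenases of the oxidative pentose phosphate steps, had averaged UVB effects of 0.10 and 0.02 and did not pass.

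The test of whether the UVB effect differed with betaine called 0 of the 45 members and 0 of all 10937 genes in limma. At an unadjusted p under 0.05 it held 880 of all genes (8.05%) and 3 members (6.67%), Gsta2 (−1.34 ± 0.46), Hmox1 (−1.16 ± 0.48, unadjusted p = 0.0325, adjusted p = 0.601) and Txnrd1 (−0.42 ± 0.19, unadjusted p = 0.0481, adjusted p = 0.619). Txnrd1 measured 9.99, 9.97 and 10.06 in betaine + UVB cultures and 10.33, 10.17 and 9.83 in UVB cultures, against 10.01, 10.14 and 10.34 in betaine cultures and 9.67, 9.84 and 10.02 in controls. The median standard error of this test was 0.172 log2, against 0.121 for a comparison of 2 groups.

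**Figure D3:**
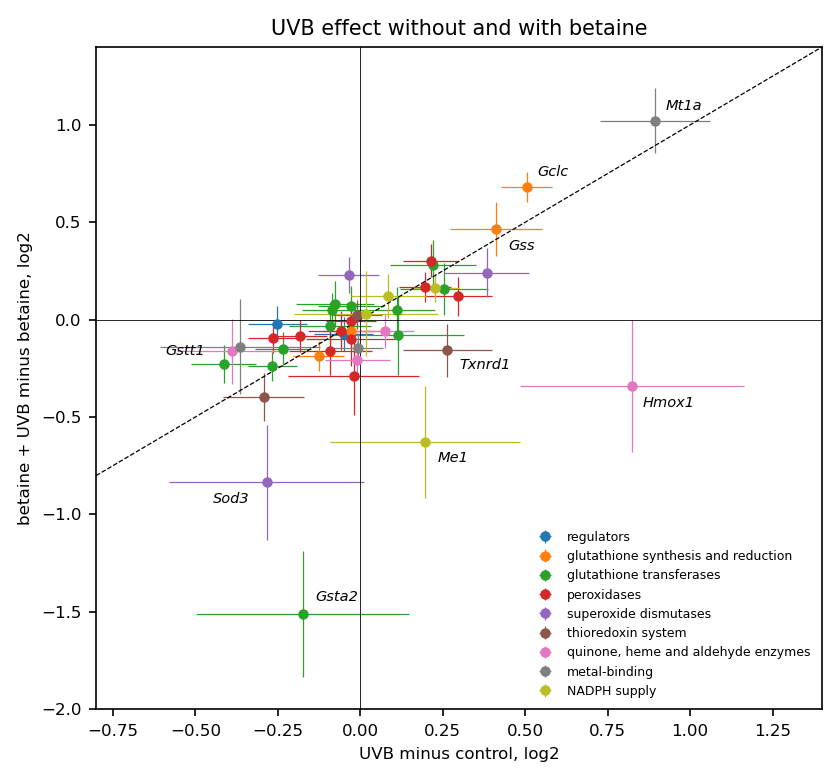
UVB effect on each of the 45 tested members, with betaine (betaine + UVB minus betaine, log2, vertical axis) against without betaine (UVB minus control, log2, horizontal axis); bars are standard errors, the dashed line marks equal effects, and colours give roles. Mt1a (1.02 with betaine, 0.89 without) and Gclc (0.68 and 0.50) lie near the line, while Gsta2 (−1.51 and −0.17) and Hmox1 (−0.34 and 0.82) lie furthest below it.

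Spread between cultures was uneven over the members. The median range within a group was 0.22 log2 over the members and 0.26 over all genes. Gsta2, Hmox1, Sod3 and Me1 were far wider, with mean ranges of 0.85, 0.81, 0.80 and 0.74, at the 99.4, 99.1, 99.1 and 98.6 percentiles of all tested genes. Hmox1 was lowest in control A, betaine C, UVB C and betaine + UVB C within their groups. The same 4 arrays were the lowest of their groups for 7 of the 45 members (15.6%), namely Fth1, Gsta2, Hmox1, Me1, Pgd, Prdx5 and Sod3, and for 689 of all 10937 genes (6.3%). Hmox1 set the 4 arrays, so it is among the 7 members and the 689 genes by construction. The pattern was chosen after the values were seen and has no test. Ftl1, Gsta4 and Gsto1 were instead the highest of their groups in the same 4 arrays. The share of all genes that were highest there was not counted. Over all tested genes, the deviations of these 4 arrays from their group means correlated at 0.12 to 0.44 in all 6 pairs, a description across genes, which are not independent. Those 4 arrays had 10369 to 10735 probes detected, against 10369 to 10768 over all 12. UVB C had the fewest of all 12, and betaine + UVB C had the lowest raw median (95.9). Each of the 4 had the lowest mean correlation with the other arrays of its group over all tested genes. This was 0.9916 for control A, 0.9886 for betaine C, 0.9936 for UVB C and 0.9955 for betaine + UVB C. The value of betaine C was the lowest of all 12. Whether these 4 arrays share a handling step was not tested.

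**Figure D4:**
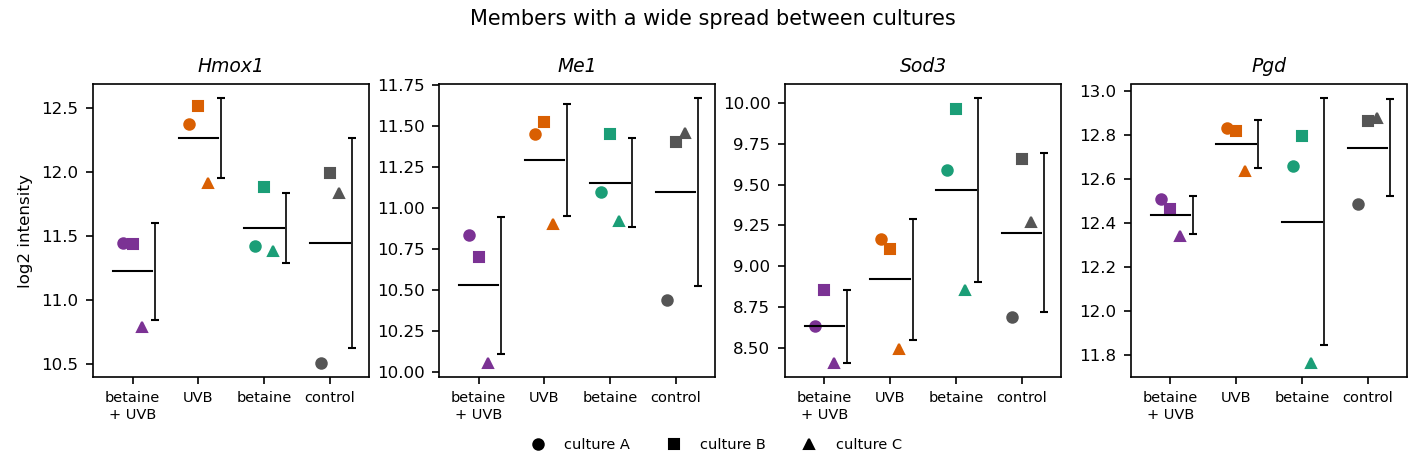
Log2 intensity of Hmox1, Me1, Sod3 and Pgd in each culture, by group, with symbols for cultures A, B and C, a line at the group mean and a bar of 1 SD each way (n = 3). In every panel control A, betaine C, UVB C and betaine + UVB C are the lowest cultures of their groups, for example 10.50 for Hmox1 in control A. The panels are a selection made after the values were seen. Ftl1 and Gsta4 are not shown here, though their mean ranges within groups were 0.60 and 0.51, against 0.45 for Pgd. Both were highest in those 4 cultures.

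A wider list of 115 genes around these pathways had 82 tested. In the averaged UVB effect 7 rose and 6 fell (15.9%, against 11.2% of all genes), and in the averaged betaine effect 0 rose and 4 fell (4.88%, against 3.25% of all genes). This list too was chosen with results known, and nothing particular to it is read from these counts. Of the 7 rises after UVB, 4 were among the 14 tested genes of glutathione supply and breakdown, where 0 fell. Over all genes 6.08% were called higher and 5.16% lower. Slc1a5, a transporter of neutral amino acids such as glutamine, rose by 1.12 ± 0.10 log2 (adjusted p = 1.04e-05). Chac1, which cleaves glutathione, rose by 1.10 ± 0.12 (adjusted p = 9.17e-05). Cth, which makes cysteine from cystathionine, rose by 0.55 ± 0.09, and Slc3a2, the heavy chain of the cystine and other amino acid transporters, by 0.40 ± 0.09. Ptges (0.54), a prostaglandin E synthase that uses glutathione, Gstm5 (0.35) and the mitochondrial malic enzyme Me2 (0.34) also rose.

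Falls after UVB in the wider list were Slc40a1, the iron exporter ferroportin (−1.11 ± 0.23), Gsta5 (−0.66 ± 0.15), Txnip, the thioredoxin inhibitor (−0.46 ± 0.07), Sesn1, a p53 target of the sestrin family (−0.34), Maoa (−0.26) and Cbr3 (−0.24). The falls with betaine were Gsta5 (−0.73 ± 0.15), Slc1a5 (−0.47 ± 0.10), Slc6a9, a glycine transporter (−0.46 ± 0.07), and Cbr1, a carbonyl reductase (−0.23 ± 0.05). Gsta5, an alpha class transferase reached through its gene ID, averaged 10.15 in betaine + UVB cultures, against 11.17 in UVB cultures and 11.10 in betaine cultures. Its fall against UVB was −1.02 ± 0.21 (adjusted p = 0.0499), and that against betaine −0.94 ± 0.21 (adjusted p = 0.0206). Gsta2 was likewise lower in betaine + UVB than in both single treatments, and Gsta5 and Gsta2 are close paralogs, and whether either probe reads the other's transcript was not tested. The 25 tested partners and other targets of NRF2 held 0 rises and 1 fall (Cbr3) in the averaged UVB effect. The share of all genes called there was 11.2%.

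The labelled cell type matched its markers. Of 8 keratinocyte markers with a probe, 7 were detected on all 12 arrays, and their summed intensity ran from 114700 to 116800 in betaine + UVB, 111300 to 114500 in UVB, 113900 to 119500 in betaine and 121100 to 123000 in control cultures. The treated groups all lay below control in this sum, and its part in the results was not tested. Single markers did not all follow the sum. Krt2, a keratin of the upper layers, measured 8.20, 8.41 and 8.0006 in betaine + UVB cultures and 5.89, 6.23 and 5.24 in UVB cultures, against 9.52, 9.93 and 8.61 in betaine cultures and 7.03, 7.75 and 7.36 in controls. Like Aldh3a1, it was higher in every culture with betaine than in any without it, and its part in the results was also not tested. Within groups Krt2 was lowest in control A, betaine C, UVB C and betaine + UVB C, as Hmox1 was. Of 6 fibroblast markers 5 were detected on 0 arrays, and the exception was Col3a1, on 8. All 3 endothelial markers, the melanocyte enzymes Tyr and Tyrp1, and the leukocyte genes Ptprc and Cd74 were detected on 0 arrays, while Pmel, Mlana, Cd68 and Cd3e were detected on all 12. Raw array medians ran from 95.9 to 117.7, and 46.0 to 47.8% of probes were detected per array.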

How the data were processed

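Total RNA (400 ng per culture, per the labels) was hybridized to Illumina RatRef-12 arrays. For 22523 probes on 12 arrays the deposited table gives a non-normalized signal intensity and a detection p-value, per the file headers. The authors' processed values, read as log2 from their range, were deposited with normalization and software not given in the sources used here, and 174 probes lack one; R 2.11 and limma are named without a role in the submitters' processing notes. Here intensities were background-corrected and quantile-normalized by neqc in limma 3.58.1 (R 4.3.3, offset 16, negative controls inferred from detection p-values). Log2 levels are compared between arrays for 1 probe, never between probes. Probes were kept if named and detected (p-value under 0.05) on 3 or more arrays; 11255 were kept and 11268 left out, and the probe with the highest mean stood for each of 10937 genes. Names came from RefSeq GRCr8 (10291 by current symbol, 1642 by gene ID, 4978 by synonym; 5495 kept the array's name and 117 had none).

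All 12 arrays entered 1 limma model of 4 group means (eBayes, with 3.83 prior beside 8 residual degrees of freedom), with Benjamini-Hochberg adjustment over all tested genes within each of 7 comparisons; scripts were tested on simulated data. The median standard error was 0.121 log2 for 2 groups and 0.0859 for an averaged effect; the number of arrays limits precision. Values per array are given for members past an adjusted p of 0.05 and, in each role group, for the member with the largest averaged UVB and the largest averaged betaine effect; genes of the wider list are named where they passed. Members and lists were chosen with earlier results of these data known. Alternatives were other background, scaling and filter settings, the authors' processed values, every probe, a replicate block, fits of 2 groups and leaving out each array. Deviations of same-letter cultures from their group means correlated over 0.1 in 8 of 18 pairs (0 of 6 for A, 5 of 6 for B, 3 of 6 for C; range −0.38 to 0.34). Since not every pair did, letters were not taken as pairs.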

Additional observations from a re-analysis of the deposited data

How the results depend on the processing

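No change reported for a member turned its direction under any alternative run. The number of members called moved by over 1.5 times from the reported 3 for UVB against control (5 without background correction, 5 with median scaling, 7 with the authors' processed values, 1 with only those groups fitted), from 1 for betaine against control (0 with the authors' values, 0 without a detection filter, 0 with only those groups), from 2 for betaine + UVB against UVB (1 without a detection filter, 1 with the replicate block) and from 2 for the averaged betaine effect (4 without background correction, 5 with the authors' values). Leaving out 1 array gave 2 to 5 for UVB against control, 0 to 2 for betaine against control, 0 to 4 for betaine + UVB against UVB, 2 to 6 for betaine + UVB against betaine, 6 to 11 for averaged UVB, 2 to 4 for averaged betaine and 0 for the interaction. Over all genes it gave 16 to 102 calls for betaine against control (98 as reported, 7 with only those groups), 26 to 238 for betaine + UVB against UVB (97, and 318 with only those groups), 315 to 709 for UVB against control (542), 366 to 919 for betaine + UVB against betaine (672) and 179 to 421 for averaged betaine (355). The labels do not say what cultures of 1 letter share, and 4 of 12 arrays correlated best with their own letter. With letters as a replicate block the averaged UVB count was 9, with Sod3 added and Prdx6, Sod2 and Taldo1 lost, and Gstt1 lost its call for UVB against control and Aldh3a1 for betaine + UVB against UVB. With median scaling Prdx3, Prdx6, Sod2 and Taldo1 lost their averaged UVB calls and Gclm and Mgst1 gained one; Gclm was also called with the authors' values. The calls of Mt1a and Gstt1 for UVB against control, Gsta4 for betaine against control and Aldh3a1 for betaine + UVB against UVB were lost when only the groups compared were fitted. In those fits Gsta2 and Hmox1 gained a call for betaine + UVB against UVB, and Gss for betaine + UVB against betaine. For the averaged betaine effect, Mgst2 and Mt1a gained a call without background correction, and Gclc, Mgst2 and Prdx3 with the authors' values. The cause of these changes was not tested. The number of arrays limits precision, and Gpx3 was detected on 6 of 12.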
